A study of Mus musculus and Homo sapiens with 4 samples.

Results

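Immediate early genes are the genes a fibroblast transcribes within minutes of meeting serum or a growth factor, without making new protein first. The set described here holds 10 genes taken as such, chosen by name: Fos, Fosb and Fosl1, Jun and Junb, Egr1 and Egr2, Ier2 and Ier3, and Myc. Fosl1 is also listed among the AP-1 targets below, and whether it needs new protein first was not tested. Each symbol stood on 1 of the 23329 entries of the mouse tables, so 10 of 10 genes were found. They were read in 2 poly-A RNA libraries of mouse embryonic fibroblasts (MEFs), grown from E13.5 embryos of C57BL/6 mice that were either wild type (WT) or knockout for the long non-coding RNA NEAT1 (NEAT1 KO). Both cultures were at passages 2 to 3 in a DMEM and Ham F12 medium with foetal calf serum, and the labels name no serum starvation, stimulation or drug. The labels do not describe the knockout allele, the number of embryos or litters, or the time from the last change of medium to harvest. The other 2 libraries of the series are from human VCaP cells and were not used here.

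With 1 library per genotype there is no spread between replicates, so the differences below rest on single values and come with no P-value. Neat1 (chromosome 19, 5842302 to 5845478, mm10) was at 29.5 RPKM in WT and at 2.01 RPKM in KO (log2 ratio -3.34), a direction that the genotypes on the labels would have. The values cover this interval only, and the source of the 2.01 RPKM left in KO was not tested. RPKM stands for reads per kilobase of an entry, scaled to the mapped reads of the library. The counter behind these values is not given, so whether the units described below are reads is not known. All 10 fibroblast markers were present, led by Vim at 3151 RPKM in WT and 2448 RPKM in KO and by Col1a1 at 1477 and 1874 RPKM. They were not level between the libraries, with 8 higher and 2 lower in KO. Past 2-fold higher were 3, Lum (7.98 and 33.0 RPKM), Dcn and Pdgfra. The list of 7 epithelial markers summed to 1.15 and 0.703 RPKM, and that of 7 endothelial markers to 1.36 and 0.736 RPKM, with Cdh1 listed at 0 in both libraries. Read totals were not analysed here. Among low entries, RPKM multiplied by transcript length most often took a value near 0.0319 in WT and 0.0338 in KO, as repeated units of counted sequence would give. A transcript of 1 kb at 1 RPKM then holds about 31.4 such units in WT and 29.6 in KO.

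Immediate early genes are switched on by factors already present in the resting cell. Growth factor receptors act through RAS and the MAP kinases ERK, JNK and p38 on serum response factor (SRF), its ternary complex partners of the Elk family, and CREB. Fos and Jun proteins pair through leucine zippers into AP-1, the Egr proteins bind GC-rich DNA with zinc fingers, and MYC pairs with MAX. Most of their mRNAs are short-lived, so that levels return towards the resting state within hours, while Fosl1 often stays higher in growing cells.

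The promoter letters of 4 members are shown. Fos and Egr2 were picked for classical binding letters of these inducers, Ier3 for the largest log2 ratio of the set and Fosb for the smallest. The Ier3 window held no CArG box and no TGACG, while the Junb window, which is not shown, did hold TGACG. RefSeq windows (GRCm38.p6, the assembly of mm10) were used for 6 of the 10 genes, Jun, Fosb, Junb, Egr2, Fos and Ier3, with 10 windows because Egr2 has several start sites. The 250 bases before each start are printed 5′ to 3′ in the direction of transcription. Capitals mark TGACG, the half-site of a cyclic AMP response element, and the TATA box in Fos; the CArG box, the letters that SRF binds, in Egr2; the half-site and a kappaB site, the letters that NF-kappaB binds, in Fosb; and a kappaB site in Ier3.
Fos (chr12:85473640-85473889, plus strand): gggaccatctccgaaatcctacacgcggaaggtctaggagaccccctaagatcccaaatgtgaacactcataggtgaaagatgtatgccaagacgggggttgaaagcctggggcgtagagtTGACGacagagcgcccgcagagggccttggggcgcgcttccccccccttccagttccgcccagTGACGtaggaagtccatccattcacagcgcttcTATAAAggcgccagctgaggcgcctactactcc
Egr2 (chr10:67537619-67537868, plus strand): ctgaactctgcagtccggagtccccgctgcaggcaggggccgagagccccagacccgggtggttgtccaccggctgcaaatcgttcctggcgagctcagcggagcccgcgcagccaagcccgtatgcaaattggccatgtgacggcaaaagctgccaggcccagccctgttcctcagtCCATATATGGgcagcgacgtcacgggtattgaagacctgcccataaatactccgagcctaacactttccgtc
Fosb (chr7:19310046-19310295, minus strand): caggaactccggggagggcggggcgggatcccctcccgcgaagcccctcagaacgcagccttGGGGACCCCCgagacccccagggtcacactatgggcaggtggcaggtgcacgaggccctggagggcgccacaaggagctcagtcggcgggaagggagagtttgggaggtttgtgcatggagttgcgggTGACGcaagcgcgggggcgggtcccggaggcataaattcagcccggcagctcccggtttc
Ier3 (chr17:35821463-35821712, plus strand): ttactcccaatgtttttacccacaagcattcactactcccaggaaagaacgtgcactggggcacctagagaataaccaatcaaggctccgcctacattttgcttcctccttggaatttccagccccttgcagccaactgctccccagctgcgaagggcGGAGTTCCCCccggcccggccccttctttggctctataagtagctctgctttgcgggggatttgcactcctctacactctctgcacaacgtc
In Fos the half-sites end 125 and 62 bases before the start, and TATAAA ends 28 bases before it. Not all matches are in capitals. Fos also has kappaB letters on the reverse strand, 214 to 205 bases before the start, in lower case, and GC boxes are not marked in any window. The CArG box of the Egr2 window lies 72 to 63 bases before the start. That window also holds TGACG in lower case, 111 to 107 bases before the start and, on the reverse strand, 55 to 51 bases before it. In Fosb the kappaB letters, which read as a match on both strands, lie 188 to 179 bases before the start and the half-site 60 to 56 bases before it. The kappaB letters of Ier3 lie on the reverse strand, 92 to 83 bases before the start, and share 2 bases with a GC box (GGGCGG).

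The search covered the 250 bases before each start, with no window of Egr1, Fosl1, Ier2 or Myc. Egr1 was left out of the member windows by a filter, which was not applied to the set of all windows. The member counts below, that of the CArG box included, therefore say nothing about Egr1, Fosl1, Ier2 or Myc. Sites further upstream were not looked for. Searched on both strands, the CArG box was in 4 of the 10 member windows, all of Egr2, and 3 of those 4 windows overlap each other. It was in 1.47% of all 32851 windows. TGACG was found in 6 of the 10 member windows, from 4 genes, and in 17.8% of all windows. The same 3 overlapping Egr2 windows are among these 6, so the 6 are not separate observations. The kappaB site was in 4 of the 10, from 4 genes, and in 7.25% of all. GGGCGG was in 6 of the 10, from 5 genes, and in 32.7% of all. TATAAA was in 1 of the 10, that of Fos, and in 12.4% of all. The full response element TGACGTCA, in 1.55% of all windows, and the AP-1 site TGANTCA, in 6.75%, were in 0 of the 10 member windows. TGACG is part of TGACGTCA, so these 2 counts are not separate. The motifs were picked after the expression values were known, and a match of letters describes the window only.

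The genes are compact. Their entries span a median of 3560 bp, against 20723 bp for entries that reached 1 RPKM in at least 1 library. Of the 8 genes matched to a single annotated transcript, 3 (Jun, Junb and Ier2) have 1 exon. Ier2 and Junb both lie on chromosome 8, with 314056 bp between them. Fosl1 lies on chromosome 19, with 386363 bp between it and the Neat1 entry.

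The levels of the 10 genes formed a high and a low set in both libraries. Junb, Jun, Ier3, Fosl1, Ier2, Egr1 and Myc were above 30 RPKM in both, a level that 2244 entries passed in WT and 2222 in KO. Fos, Egr2 and Fosb were below 10 RPKM in both. The order in WT was Junb, Jun, Ier3, Fosl1, Ier2, Egr1, Myc, Fos, Egr2 and Fosb. In KO Ier3 stood first, Egr1 and Ier2 were level to 3 digits at 62.9 RPKM, and Egr2 stood above Fos. Without replicates, neighbours in either order cannot be said to differ.

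**Figure D1:**
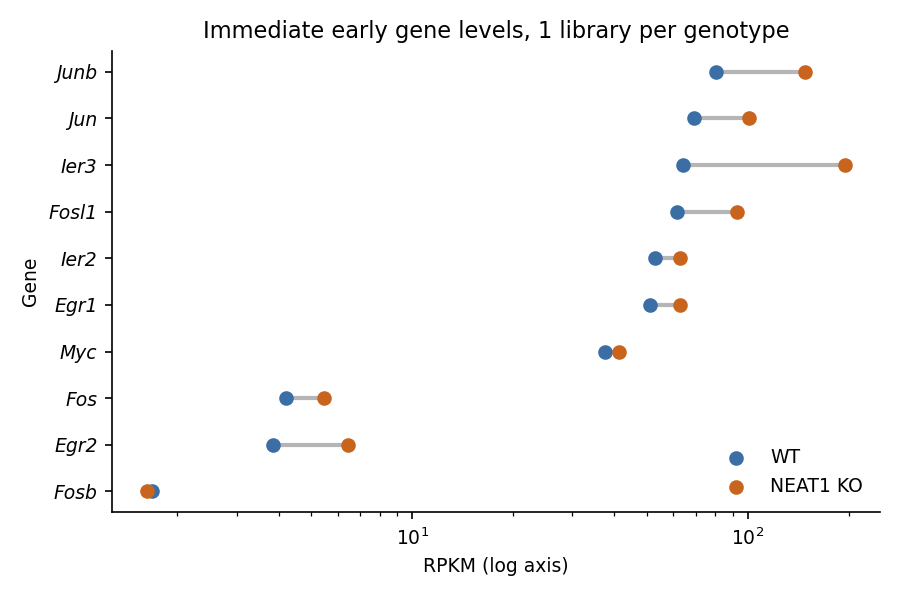
RPKM of the 10 immediate early genes on a log axis, with 1 point for the WT library and 1 for the NEAT1 KO library of MEFs, joined by a line. The KO point lies to the right for 9 of 10 genes, with the longest line for Ier3, from 63.9 to 194 RPKM, while the points of Fosb nearly coincide.

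In NEAT1 KO MEFs 9 of the 10 genes had a higher RPKM than in WT MEFs, and Fosb was about level. Only Ier3 was more than 2-fold higher on the scale used, the log2 of (KO RPKM + 1) over (WT RPKM + 1), which understates changes of low genes. No member was 2-fold lower. The median log2 ratio of the 10 genes was 0.43, against -0.062 for the 11463 entries that reached 1 RPKM in a library and 0 over all 23329 entries. Over the same 11463 entries 39.2% were higher in KO by any amount (30.1% of all entries), 1.99% were past 2-fold higher (0.977% of all entries) and 0.68% past 2-fold lower (0.334% of all entries). So 1 of 10 members past 2-fold is a count of a single gene, while the direction of 9 of 10 is set against 39.2%. Level alone gives another background. Of the 2227 entries with a mean above 30 RPKM, 47.3% were higher in KO, 2.11% were past 2-fold higher and 0.314% past 2-fold lower, with a median log2 ratio of -0.014. The 7 members above that level had a median of 0.54. The genes share inducers and were harvested together, so they are not 10 independent observations.

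**Figure D2:**
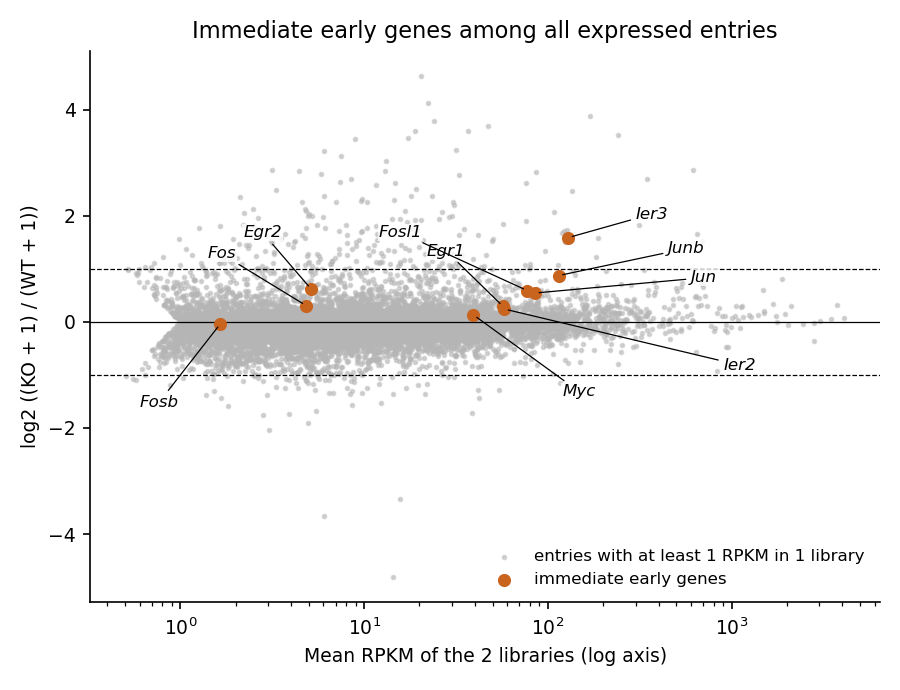
Log2 ratio of KO to WT (pseudocount 1) against the mean RPKM of the 2 libraries on a log axis, for the 11463 entries with at least 1 RPKM in 1 library (grey) and the 10 immediate early genes (orange, named). Dashed lines mark 2-fold. Ier3 alone of the 10 is above the upper line, at 1.59, and Fosb lies at -0.03.

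Ier3 (NM_133662, chromosome 17, 35821713 to 35822911) encodes a short-lived protein of early growth and stress responses that acts on cell survival, and it is a known NF-kappaB target. It had 63.9 RPKM in WT and 194 RPKM in KO, 3.04 times as much, a log2 ratio of 1.59. This ranked 98 of the 11463 entries. In WT it stood below Junb, at 0.794 of the Junb level, and in KO above it, at 1.31 times. The other early response gene of that name, Ier2 (NM_010499, chromosome 8, 84661331 to 84662852), which encodes a nuclear protein, had 53.0 RPKM in WT and 62.9 RPKM in KO. Its log2 ratio of 0.24 ranked 1451, so the pair differed in size while both were higher in KO.

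Junb and Jun encode the Jun partners of AP-1. Junb (NM_008416, chromosome 8, 84976909 to 84978748) had 80.5 RPKM in WT and 148 RPKM in KO, 1.84 times as much, with a log2 ratio of 0.87 that ranked 300. Jun (NM_010591, chromosome 4, 95049036 to 95052222) had 69.0 RPKM in WT and 101 RPKM in KO, 1.47 times as much, with a log2 ratio of 0.54 that ranked 581. An antisense gene, Junos, overlaps Jun in GENCODE, and the fibroblast libraries are not labelled as stranded, so reads of this pair cannot be told apart. The family member outside the set, Jund, had 41.0 and 53.7 RPKM. Summed, the Jun family had 190.5 RPKM in WT and 303.1 RPKM in KO, and Junb made up 42.2% of it in WT and 48.9% in KO.

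Among the Fos genes the level was carried by the Fos-related antigens and not by Fos itself. Fosl1 (NM_010235, chromosome 19, 5447698 to 5455938), which encodes FRA1, had 61.4 RPKM in WT and 93.0 RPKM in KO, 1.51 times as much, a log2 ratio of 0.59 that ranked 528. The opposite-strand gene Ccdc85b overlaps 2776 bp of the Fosl1 entry and had 27.1 and 33.5 RPKM, a log2 ratio of 0.29. As for Jun and Junos, reads of the shared stretch cannot be told apart, which limits the Fosl1 values here and below. Fos (NM_010234, chromosome 12, 85473901 to 85477270), the classical serum-response gene, had 4.22 RPKM in WT and 5.46 RPKM in KO, with a log2 ratio of 0.31 that ranked 1116. Fosl1 stood 14.6 times above Fos in WT and 17.0 times above it in KO. Fosb (NM_008036, chromosome 7, 19302696 to 19310045), which encodes a further Fos partner of AP-1, had 1.69 RPKM in WT and 1.62 RPKM in KO. Its log2 ratio of -0.03 ranked 5181, close to the middle of the entries, and its sign turned with the scaling: it was 0.02 after centring and 0.05 after quantile normalization.

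The Fos family summed to 144 RPKM in WT and 199 RPKM in KO. Fosl2, which encodes FRA2 and is outside the set, had 77.1 and 98.6 RPKM, so that Fosl1 and Fosl2 held 42.5% and 53.4% of the family in WT and 46.8% and 49.6% in KO. Fos held 2.92% in WT and 2.75% in KO. Fosb held 1.17% and 0.816%. These are shares of mRNA per length and not of AP-1 protein.

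**Figure D3:**
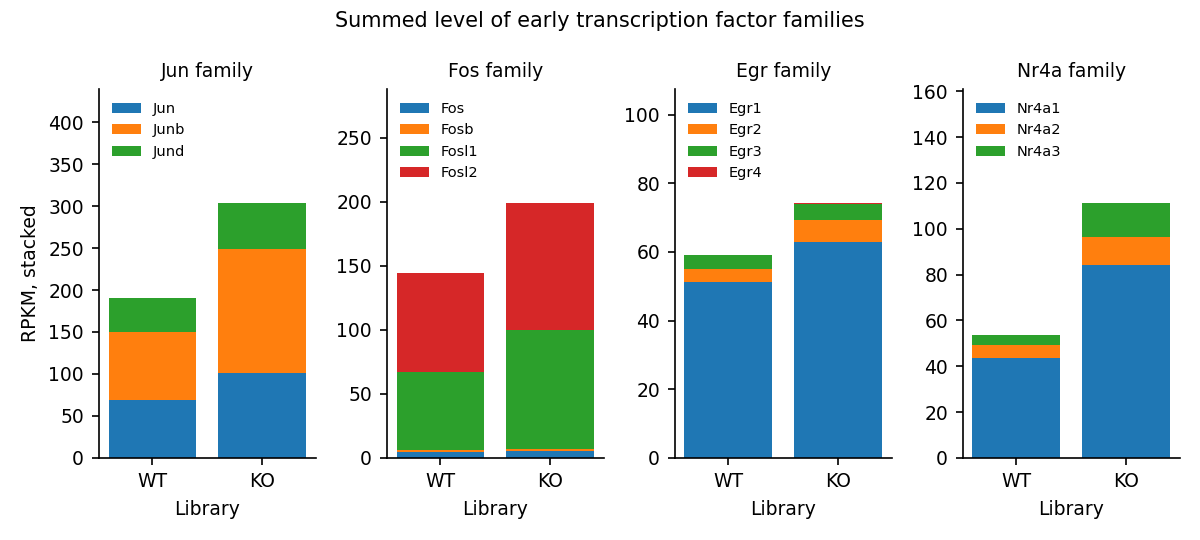
Stacked RPKM of the Jun, Fos, Egr and Nr4a families in the WT and the NEAT1 KO library, with a separate axis for each family starting at 0. The Jun bar goes from 190.5 to 303.1 RPKM with Junb as its largest part, and the Fos bar consists almost wholly of Fosl1 and Fosl2 in both libraries.

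Egr1 and Egr2 encode zinc finger factors of the early growth response. Egr1 (NM_007913, chromosome 18, 34861207 to 34864956) had 51.2 RPKM in WT and 62.9 RPKM in KO, 1.23 times as much, a log2 ratio of 0.29 that ranked 1190. Egr2 (NM_010118, chromosome 10, 67537869 to 67542188) had 3.85 RPKM in WT and 6.45 RPKM in KO, 1.67 times as much, a log2 ratio of 0.62 that ranked 496. The lower of the pair thus had the larger ratio, and Egr1 remained 13.3 times above Egr2 in WT and 9.75 times in KO. Outside the set, Egr3 had 4.05 and 4.67 RPKM and Egr4 had 0.137 and 0.129 RPKM. Nab2, which encodes a co-repressor of Egr proteins and is itself an early gene, had 71.9 and 67.5 RPKM, a log2 ratio of -0.09.

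Myc (chromosome 15, 61985341 to 61990361), which encodes the growth-promoting MYC factor, had 37.5 RPKM in WT and 41.2 RPKM in KO, 1.10 times as much. Its log2 ratio of 0.13 ranked 2388 and was the smallest of the 9 genes that were higher. Its entry combines 4 RefSeq transcripts. On the unit scale described above, Fosb, with the fewest among the 8 matched genes, held about 200 units in WT and 182 in KO, Fos about 279 and 341, and Ier3 about 2267 and 6508. Egr2 and Myc were not matched to a single transcript, so no units were computed for them.

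Of the MYC network, 7 of 11 genes were higher in KO and 0 were past 2-fold, with a median log2 ratio of 0.083. Max, the partner of MYC, had 33.6 and 34.9 RPKM. Mxd4 and Mxd3, which encode repressors that compete for MAX, had 36.6 and 45.2 RPKM and 24.8 and 29.2 RPKM. The extremes were Mxi1, another such repressor, with 2.24 and 4.73 RPKM and a log2 ratio of 0.82, and Mycl1, at 2.13 and 1.41 RPKM and -0.38. Of 16 MYC target genes 5 were higher and 11 lower, 0 past 2-fold, with a median of -0.15, or -0.087 after centring. Over the 11463 entries that reached 1 RPKM in a library, 39.2% were higher, with a median of -0.062. Npm1 (124 and 108 RPKM) and Ncl (61.3 and 41.4 RPKM, log2 ratio -0.56), both of ribosome assembly, were among the lower ones, as was Cdk4 (190.0 and 170.3 RPKM). Ldha, the glycolytic lactate dehydrogenase, went the other way with 538 and 851 RPKM, 0.66 on the log2 scale.

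Genes of the inducing pathway lay near the background of 39.2% higher and a median of -0.062. Of 9 genes for SRF, its co-factors and the CREB group, 4 were higher and 0 past 2-fold, with a median log2 ratio of -0.0025, or 0.056 after centring. Srf had 45.3 RPKM in both libraries. Mkl1, an actin-controlled SRF co-activator, had 47.9 and 40.3 RPKM, and Elk3, a ternary complex factor, had 32.4 and 33.1 RPKM. The lowest ratio was that of Creb1, -0.37, at 3.99 and 2.87 RPKM, and the highest that of Elk4, 0.098, at 8.38 and 9.04 RPKM. Of 23 receptor and MAP kinase genes found among 24 listed, 8 were higher and 15 lower, with a median of -0.10. Pdgfra, a receptor for platelet-derived growth factor, was the only one past 2-fold, with 4.18 RPKM in WT and 13.8 RPKM in KO, with a log2 ratio of 1.51. Its partner Pdgfrb had 79.5 and 95.5 RPKM, the ERK-activating kinase gene Map2k1 51.9 and 81.3 RPKM, and the ERK1 gene Mapk3 78.7 and 73.1 RPKM. Fgfr2, a fibroblast growth factor receptor, had the lowest ratio, -0.70, at 14.5 and 8.51 RPKM. These are mRNA levels, and the activity of the kinases was not measured.

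Early genes outside the set were read from 3 lists. The background over the 11463 entries that reached 1 RPKM in a library was 39.2% higher, 1.99% past 2-fold higher and 0.68% past 2-fold lower. Its median log2 ratio was -0.062. Of 24 transcription factor genes, 15 were higher in KO, 1 was past 2-fold higher and 0 past 2-fold lower, with a median log2 ratio of 0.16. The 1 gene was Nr4a3, an orphan nuclear receptor, with 4.31 RPKM in WT and 14.5 RPKM in KO, with a log2 ratio of 1.54. Its relatives Nr4a1, with 43.5 and 84.1 RPKM, and Nr4a2, with 5.90 and 12.4 RPKM, had ratios of 0.93 and 0.96, and the family summed to 53.7 RPKM in WT and 111 RPKM in KO. The inhibitors of differentiation Id3 and Id1 were the most abundant of the list. Id3 had 550 and 595 RPKM, and Id1 had 252 and 189 RPKM. Jdp2, which encodes a repressor that pairs with Jun, had the lowest ratio, -0.67, at 26.3 and 16.1 RPKM. Jund, Egr3, Egr4, Nr4a1 and Nr4a2 were named after their values had been seen, as relatives of genes in the lists, as were Plau, Plaur, Ezr and the other blood markers below, to complete their lists.

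Of 23 genes of feedback and mRNA decay, 14 were higher, 3 past 2-fold higher and 0 past 2-fold lower, with a median of 0.28. The 3 genes restrain the pathways that induce them. Nfkbia encodes the NF-kappaB inhibitor IkappaB-alpha and had 31.6 RPKM in WT and 121 RPKM in KO, with a log2 ratio of 1.90. Errfi1, an inhibitor of the EGF receptor, had 24.9 and 75.2 RPKM and a ratio of 1.56. Tnfaip3, the NF-kappaB-restraining enzyme A20, had 2.81 and 8.24 RPKM and a ratio of 1.28. The ERK phosphatase gene Dusp5 had the lowest ratio, -0.28, at 13.6 and 11.0 RPKM, and the stress gene Gadd45b had 73.6 and 67.7 RPKM.

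The list of 20 secreted and signalling early genes held the largest ratios. In KO 16 were higher, 6 past 2-fold higher and 0 past 2-fold lower, with a median of 0.32. The chemokine genes Ccl2, with 37.5 RPKM in WT and 442.0 RPKM in KO, Ccl7, with 40.5 and 228.9 RPKM, and Cxcl1, with 2.05 and 32.7 RPKM, had log2 ratios of 3.52, 2.47 and 3.47. The cytokine genes Il6, with 2.09 and 24.4 RPKM, and Lif, with 7.63 and 57.9 RPKM, had ratios of 3.04 and 2.77. Ereg, an EGF-receptor ligand, had 12.9 and 36.4 RPKM and a ratio of 1.42. Abundant genes of the list were near level. Thbs1 had 3967 and 4186 RPKM and Ctgf 1851 and 2050 RPKM, both genes of secreted matrix proteins. Arc had the lowest ratio, -0.89, at 5.22 and 2.35 RPKM.

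Known AP-1 targets formed a list of 15, which shares Fosl1, Il6, Plau and Plaur with the lists above and Dcn with the fibroblast markers. In KO 11 were higher, 6 past 2-fold higher and 0 past 2-fold lower, with a median log2 ratio of 0.60. The same background was 39.2% higher, 1.99% past 2-fold higher and 0.68% past 2-fold lower, with a median of -0.062. The collagenase and stromelysin genes Mmp3 (91.5 to 600.4 RPKM from WT to KO), Mmp13 (20.7 to 131.8 RPKM) and Mmp10 (2.59 to 20.5 RPKM) had ratios of 2.70, 2.61 and 2.58. Mmp9, a gelatinase, had 0.936 and 8.25 RPKM and a ratio of 2.26, and Dcn, a matrix proteoglycan, 19.8 and 64.0 RPKM and 1.64. Timp1, which encodes an inhibitor of these proteases, had 1354 and 2388 RPKM, and Spp1, the osteopontin gene, 1177 and 1788 RPKM. The 4 lower targets were the cell cycle gene Ccnd1, with 91.6 and 57.8 RPKM and a ratio of -0.65, the urokinase protease gene Plau, with 72.3 and 51.8 RPKM and -0.47, its receptor gene Plaur, with 112 and 83.2 RPKM and -0.43, and Ezr, with 11.7 and 10.2 RPKM and -0.18. The 4 Mmp genes had larger ratios than any Jun or Fos gene of the set, a difference in size that was not tested.

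**Figure D4:**
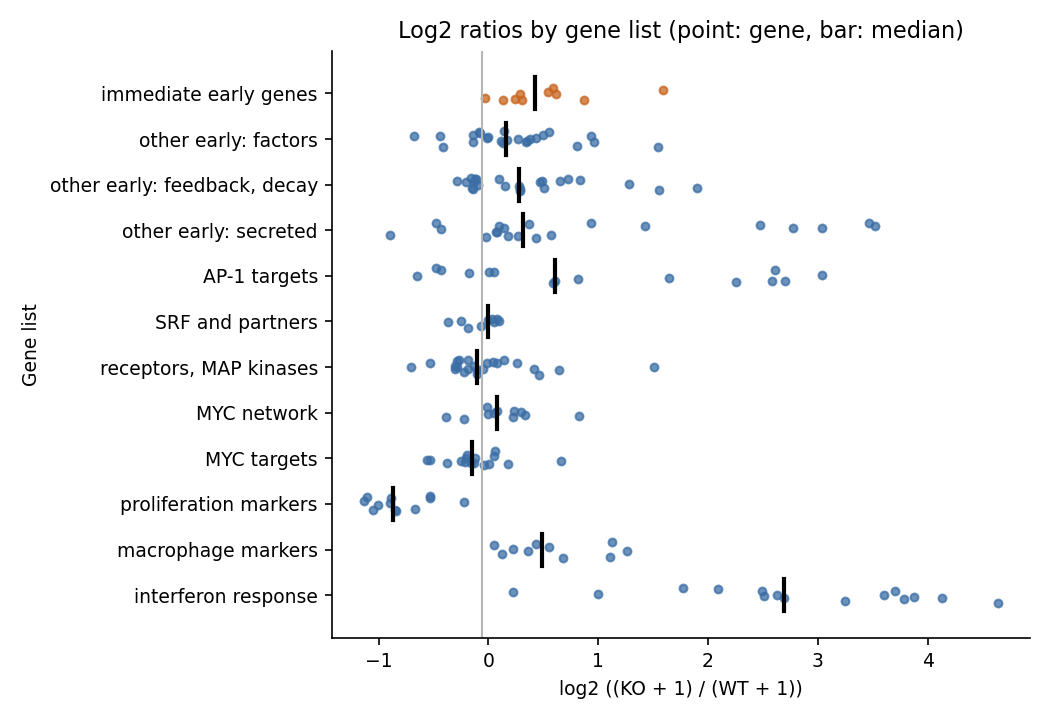
Log2 ratio of KO to WT (pseudocount 1) for the genes of 12 lists, with 1 point per gene, a black bar at each median and a grey line at the median of entries with at least 1 RPKM in 1 library. The immediate early genes (orange) lie mostly right of the line with a median of 0.43, while the 12 proliferation markers lie left of it and the 15 interferon genes reach 4.64.

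Other gene groups also differed between these 2 libraries. The background was again 39.2% higher, 1.99% past 2-fold higher and 0.68% past 2-fold lower. All 15 genes of an interferon-response list were higher in KO, 13 past 2-fold, and summed to 54.9 RPKM in WT and 733 RPKM in KO. All 10 macrophage and blood markers were higher as well, with sums of 22.5 and 54.3 RPKM and 3 past 2-fold: Lyz2 (13.9 and 34.7 RPKM), Cd68 (2.79 and 7.26 RPKM) and Cd14 (1.67 and 4.73 RPKM). The other 7 were within 2-fold on the log2 scale used: Tyrobp (1.91 and 2.93 RPKM), Laptm5 (0.816 and 1.65 RPKM), Emr1 (0.482 and 1.37 RPKM), Csf1r (0.521 and 0.775 RPKM), Itgam (0.199 and 0.542 RPKM), Cd53 (0.157 and 0.264 RPKM) and Ptprc (0.0449 and 0.0813 RPKM). All 12 proliferation markers were lower in KO, 4 past 2-fold, with sums of 244 and 154 RPKM, among them Ccna2 (12.5 and 5.14 RPKM) and Top2a (10.8 and 4.67 RPKM). Muscle markers summed to 19.1 and 7.54 RPKM, with Acta1 past 2-fold lower at 12.6 and 4.26 RPKM. The neural markers found summed to 44.0 and 39.5 RPKM, with Stmn2 past 2-fold lower at 8.03 and 3.27 RPKM. Few genes made up these sums, mainly Acta1 and Des (6.28 and 3.20 RPKM) for muscle and Tubb3 (35.9 and 36.1 RPKM) for the neural list. Of the 7 muscle markers 4, and of the 6 neural markers found 4, were under 0.1 RPKM in both libraries. The part of these differences in the values of the immediate early genes was not tested. In such bulk RNA, a change in the number of cells of a type and a change in RNA per cell cannot be told apart, nor can genotype and culture with 1 library each.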

How the data were processed

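Poly-A RNA of 1 WT and 1 NEAT1 KO culture of mouse embryonic fibroblasts was sequenced. The authors deposited 1 RPKM value per RefSeq entry, with no scaling between libraries stated. The submitters' processing notes name CASAVA 1.8 and mm10. The aligner and counter are not given in the sources used here. Starts in the files count from 0 and are printed plus 1. Of 18273 entries compared with RefSeq GRCm38, 9310 starts then matched exactly, against 667 as written.

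The log2 ratio was computed from KO RPKM plus 1 over WT RPKM plus 1. Every entry was kept, and past 2-fold means a log2 ratio above 1 or below -1. No test was made. RPKM holds no read totals, so no counting interval is given. Transcript lengths were from GENCODE M21. Named genes were the members, Neat1 and, of each list, the 3 most abundant genes, the highest and lowest ratio, and genes past 2-fold, except 1 gene not reported here. Members and lists were chosen with earlier results of these data known. The script was tested on simulated data. Computation used pandas 2.3.3 with numpy 2.4.6 under Python 3.11.15, and plots matplotlib 3.10.9.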

Additional observations from a re-analysis of the deposited data

How the results depend on the processing

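No paired analysis was possible because each genotype has 1 library and the result comes from no test, and for the same reason no replicate could be left out. The 6 alternatives tried were 0.1 as pseudocount, dropping entries under 1 RPKM in each library, subtracting the median log2 ratio (-0.059) of entries that reach 1 RPKM in both, quantile normalization, the same sum of RPKM in each library, and 1 entry per symbol, which changed nothing since every symbol stands on 1 entry. A log2 ratio was taken as moved past 0.58 and a count past 1.5 times. Of 150 recomputed values 148 stayed within these limits. The other 2 were the counts over all entries with a pseudocount of 0.1, which gave 500 past 2-fold higher and 540 past 2-fold lower in place of 228 and 78, because low entries then pass. Many of the 148 had little room to move. The 1 RPKM minimum left every member and both 2-fold counts over all entries unchanged. Centring shifted each log2 ratio by only 0.059, and the RPKM sums differed only 1.04 times. Members higher in KO numbered 9 or 10, since Fosb was above 0 after centring and quantile normalization. The median of the members ran from 0.38 to 0.49, and Ier3, from 1.54 to 1.65, stayed the only member past 2-fold under these alternatives. Depth is known only relative to the recurring unit, whose KO to WT ratio was 1.06.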
